A study of Mus musculus with 2 samples.

Results

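Elastic fibres were examined through 10 genes in ureters of mouse embryos with a conditional deletion of Rbpj in the Tbx18-expressing mesenchyme and in ureters of controls. The genes were Eln, Fbn1, Fbn2, Fbln5, Mfap4, Mfap5, Lox, Loxl1, Emilin1 and Ltbp2. The choice was by name, with earlier results of these data known. Counts among the 10 genes, set beside shares of all features, are therefore descriptions and not tests. The 10 genes were measured by 14 of the 39429 probes on the array, all 14 by a single spot. All 10 genes passed the filter on dim probes, among 20989 features (1 probe per gene name) that were tested. Ureters came from NMRI embryos at E18.5, shortly before birth. The Rbpj-cKO embryos were Tbx18(cre/+);Rbpj(fl/fl), so that cre is made from the Tbx18 locus and 1 Tbx18 allele is altered in all of them. The controls were Rbpj(fl/?), with at least 1 floxed allele, a second allele that the labels leave unspecified, and no cre listed. A male array (replicate 1) carried Rbpj-cKO RNA in the red and control RNA in the green channel, and a female array (replicate 2) carried them the other way round. Sex and dye orientation therefore cannot be told apart, and the number of embryos behind each RNA is not stated in the labels.

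An elastic fibre has a core of crosslinked elastin laid on a scaffold of fibrillin microfibrils. Fibulin-5 and emilin-1 link tropoelastin to the microfibrils, and lysyl oxidases crosslink it. Latent TGF-beta binding proteins and microfibril-associated glycoproteins decorate the scaffold. In the wall of hollow organs these fibres are made mostly by smooth muscle cells and fibroblasts and give the wall its recoil. Rbpj is the DNA-binding partner of Notch, and the comparison asks whether its loss from the mesenchyme is accompanied by other levels of these transcripts.

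Median signal over all probe spots was 6.38 to 13.3 times the median background in the 4 channels, and 66.8% to 71.1% of them were well above background. No probe spot was saturated. All ratios are log2 values of Rbpj-cKO over control, and where 2 are given the male array comes first. The brighter Rbpj probe had ratios of -1.58 and -0.93 (limma adjusted p = 0.0760), and a dimmer one had -0.42 and -1.12. The sources do not say whether either lies in the deleted part. All 6 smooth muscle markers (Acta2, Myh11, Tagln, Cnn1, Smtn and Des) and all 6 urothelial markers were well above background in all 4 channels. Of the kidney markers, Slc34a1 and Umod did not pass the filter on dim probes. Six2 (1.48 and 0.86 at its brightest probe, 0.29 and 0.48 at a second) had higher levels in Rbpj-cKO RNA on both arrays. So did Cdh16 (0.21 and 1.29), and the part of these 2 genes in the results was not tested. The number of arrays limits the precision.

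Mfap4 and Ltbp2 had the lowest ratios of the 10 genes, and the other 8 had means within 0.12 of 0 on the log2 scale, or within 0.17 under the other ways of processing. The mean level was 1.72-fold lower in Rbpj-cKO ureters for Mfap4 and 1.55-fold lower for Ltbp2, and neither passed the test over all features. No member passed (0 of 10, lowest limma adjusted p = 0.437), against 27 of all 20989 features, or 0.129% (0.0858% lower and 0.0429% higher in Rbpj-cKO). With 1 residual degree of freedom that count is approximate, and on simulated data the test made more false calls than its threshold allows. At an unadjusted limma p under 0.05 there were 2 of the 10, Mfap4 and Ltbp2, both lower, against 3.37% of all features in either direction and 1.9% lower. The median of the 10 means was -0.05, against 0.01 over all features. The median absolute mean was 0.09 for the 10 genes and 0.10 over all features.

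**Figure D1:**
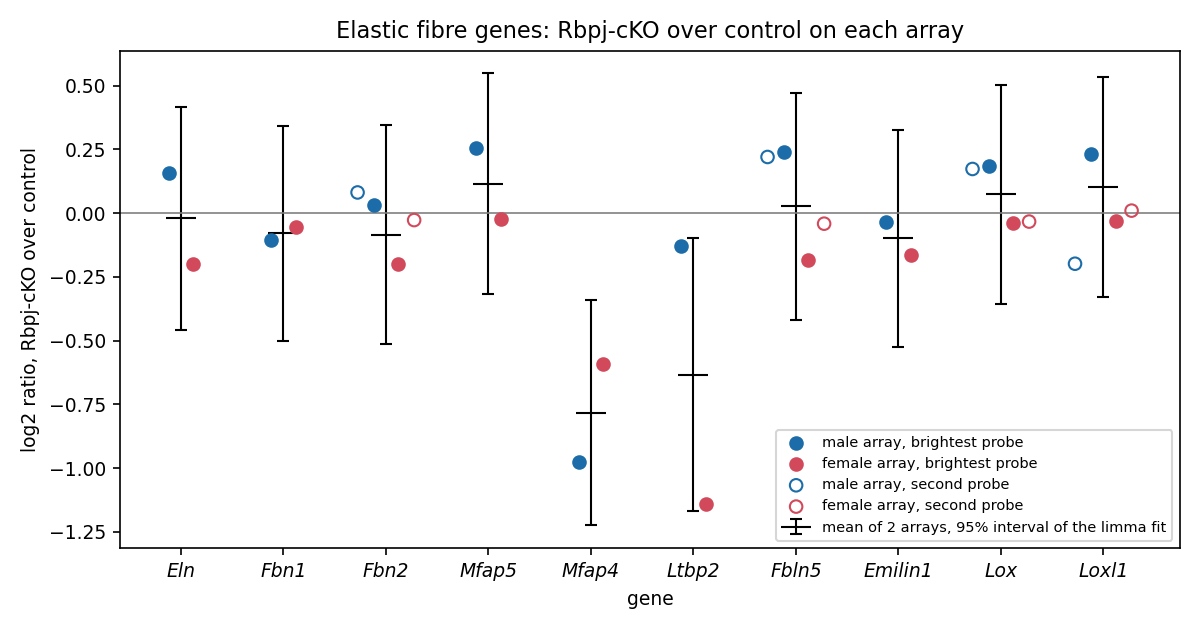
Log2 ratio of Rbpj-cKO over control (vertical axis) for each of the 10 genes (horizontal axis). Filled points are the brightest probe on the male (blue) and female (red) array, open points the second probe of 4 genes, and bars the mean with the 95% interval of the limma fit; Mfap4 and Ltbp2 have intervals below 0 and the other 8 span it.

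Mfap4 encodes a fibrinogen-domain glycoprotein that binds elastin and fibrillin-1. Its log2 channel level was 15.05 in Rbpj-cKO and 16.02 in control RNA on the male array, and 15.96 and 16.55 on the female array. Both Rbpj-cKO levels lay below both control levels, by a gap of only 0.06 between the female Rbpj-cKO and the male control channel. The ratios were -0.97 and -0.59, with a mean of -0.78 (SD 0.27, n = 2; 95% interval of the fit -1.22 to -0.34). The unadjusted limma p was 0.00237 and the adjusted p 0.437. It ranked 93rd from the lowest of 20989 features by mean ratio. Mfap4 was the 1 member lower by at least 1.5-fold (0.58 on the log2 scale) on both arrays, as were 91 of all features, or 0.434%, and its female ratio was only just past that size. With median centring in place of loess, the dye correction that follows signal strength, its ratios were -0.53 and -1.08, so that the male array no longer reached 1.5-fold. The probe lies on chromosome 11 at 61302147 to 61302206, plus strand (mm9, as the files give it).

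Ltbp2 encodes a latent TGF-beta binding protein that attaches to fibrillin microfibrils and, unlike its relatives, does not bind latent TGF-beta. On the male array its log2 channel level was 11.13 in Rbpj-cKO and 11.26 in control RNA, and on the female array 10.67 and 11.81. The gap was thus small in the male and large in the female pair. The ratios were -0.13 and -1.14, with a mean of -0.63 (SD 0.71, n = 2; 95% interval -1.17 to -0.10). That interval draws its spread mostly from all features pooled, and less from the wide gap between these 2 ratios. The unadjusted limma p was 0.0246 and the adjusted p was 1. With median centring or with Agilent's processed signals the unadjusted p was 0.127 or 0.0668. The mean thus rests on the female array, and with median centring the male ratio was 0.03. Its rank was 164th from the lowest. The probe lies on chromosome 12 at 86124167 to 86124226, minus strand (mm9).

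**Figure D2:**
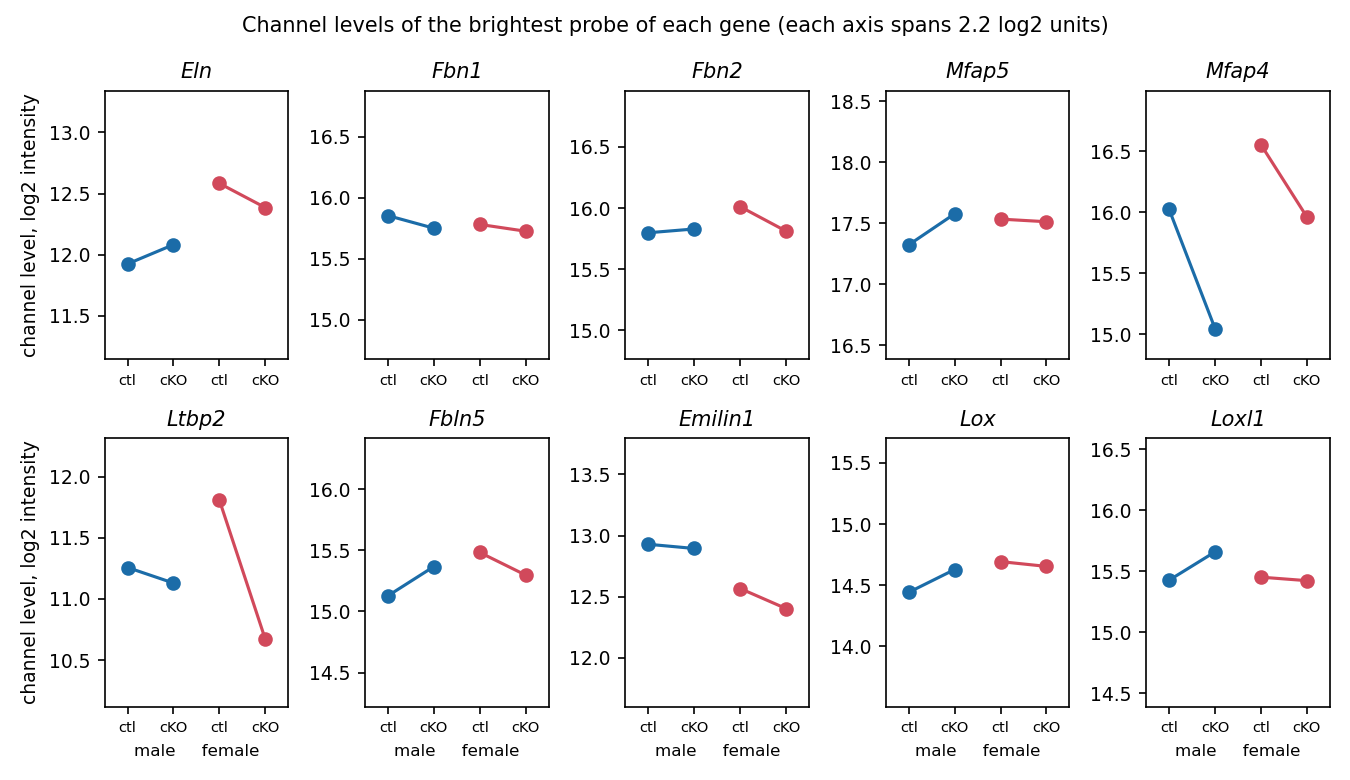
Log2 channel level (vertical axis, 2.2 units tall in every panel) of the brightest probe of each gene in control and Rbpj-cKO RNA of the male (blue) and female (red) array. Rbpj-cKO lies below control on both arrays for Mfap4, and for Ltbp2 mainly on the female array (11.81 in control and 10.67 in Rbpj-cKO RNA); levels of different genes come from different probes and are not comparable.

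Eln encodes tropoelastin, the soluble precursor of the elastin core. Its log2 channel level was 12.08 in Rbpj-cKO and 11.92 in control RNA on the male array, and 12.39 and 12.58 on the female array. The 2 groups overlapped, with a ratio of 0.16 in the male and -0.20 in the female pair (mean -0.02, SD 0.25, n = 2). The 95% interval of the fit ran from -0.46 to 0.42, which is from 1.37-fold lower to 1.34-fold higher. Differences inside that interval are not excluded by these 2 arrays, and the interval is not a limit of detection. A larger mean difference, 1.72-fold lower for Mfap4, did not pass the test over all features. The Eln probe lies on chromosome 5 at 135179129 to 135179188, minus strand (mm9).

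The fibrillins form the microfibril backbone, Fbn1 through life and Fbn2 mostly before birth. For Fbn1 the levels were 15.75 in Rbpj-cKO and 15.85 in control RNA on the male array, and 15.73 and 15.78 on the female array. The Rbpj-cKO levels were just below the control levels, by 0.03 at the nearest. Fbn1 had ratios of -0.10 and -0.06 (mean -0.08, SD 0.03; 95% interval -0.50 to 0.34), at a probe on chromosome 2 at 125126727 to 125126786 (minus strand, mm9). The brighter Fbn2 probe had levels of 15.83 and 15.80 on the male and 15.81 and 16.01 on the female array, Rbpj-cKO first. The female control stood above the other 3 values, which lay within 0.03 of each other. This probe gave ratios of 0.03 and -0.20 (mean -0.08, SD 0.16; 95% interval -0.51 to 0.34). At a second Fbn2 probe the levels were 13.90 and 13.82, then 13.77 and 13.80. The second Fbn2 probe gave 0.08 and -0.03 (mean 0.03, and -0.02 with Agilent's processed signals). The sign of the Fbn2 mean thus depended on the probe, within a range smaller than the spread between the arrays. In all, 3 of the 10 members (Mfap4, Ltbp2 and Fbn1) had both Rbpj-cKO levels below both control levels, against 12.5% of all features, and 0 had them above, against 14.9%.

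Mfap5, a microfibril-associated glycoprotein that binds fibrillins, had the highest mean of the 10. Its levels were 17.58 in Rbpj-cKO and 17.32 in control RNA on the male array, and 17.51 and 17.53 on the female array. The male pair differed and the female pair hardly did. The ratios were 0.25 and -0.02 (mean 0.12, SD 0.19; 95% interval -0.32 to 0.55; limma adjusted p = 1). The probe lies on chromosome 6 at 122478591 to 122478650, plus strand (mm9). Mfap5 and Mfap4 share part of a name but belong to different protein families, and their means lay at opposite ends of the 10 genes. The top place of Mfap5 depended on the processing. With Agilent's processed signals the mean was 0.17 for Loxl1 and 0.13 for Mfap5. With median centring it was 0.14 for Loxl1, 0.12 for Lox and 0.11 for Mfap5.

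Fbln5 encodes fibulin-5, which brings tropoelastin and the crosslinking enzymes to microfibrils. The levels at its bright probe were 15.37 in Rbpj-cKO and 15.13 in control RNA on the male array, and 15.30 and 15.48 on the female array. The groups overlapped, with the control channels as the lowest and the highest of the 4. The ratios of 0.24 and -0.19 had opposite signs and a mean of 0.03 (SD 0.30; 95% interval -0.42 to 0.47). This probe lies on chromosome 12 at 102988153 to 102988212, minus strand (mm9). A second Fbln5 probe gave 0.22 and -0.04, but its signal was only 1.76 to 2.68 times its local background, and in control RNA it was well above background on 1 array only. With Agilent's processed signals this second probe had 0.52 and 0.20 (mean 0.36 in place of 0.09), above 0 on both arrays. Emilin1, which encodes a glycoprotein at the border of elastin and microfibrils, had levels of 12.89 and 12.93 on the male and 12.40 and 12.57 on the female array, Rbpj-cKO first. Both ratios of Emilin1 were below 0, at -0.03 and -0.16 (mean -0.10, SD 0.09; 95% interval -0.52 to 0.33), while both male channels lay above both female ones.

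Lox and Loxl1 encode copper-dependent enzymes that oxidise lysines of tropoelastin and collagen so that they crosslink. The brighter Lox probe had levels of 14.63 in Rbpj-cKO and 14.44 in control RNA on the male array, and 14.65 and 14.69 on the female array. The male pair differed more than the female pair, and the levels of the groups overlapped. The ratios were 0.19 and -0.04 at this probe (mean 0.07; 95% interval -0.36 to 0.50) and 0.17 and -0.03 at the second Lox probe. Levels at that second probe were 12.26 and 12.09 on the male and 12.09 and 12.13 on the female array, Rbpj-cKO first. The brighter Loxl1 probe had levels of 15.66 and 15.43 on the male and 15.42 and 15.45 on the female array. The male Rbpj-cKO channel was high and the other 3 lay close together. At the second Loxl1 probe the levels were 12.03 and 12.23 on the male array, and 11.997 and 11.99 on the female array, so that the male control was the high one. The brighter probe had ratios of 0.23 and -0.03 (mean 0.10; 95% interval -0.33 to 0.53) and the second probe -0.20 and 0.01 (mean -0.09), so that the probes of this gene had opposite signs on each array. Neither passed the test. Of the 4 members with 2 probes, Fbln5, Fbn2 and Lox had the same sign at both probes on each array, and Loxl1 did not. With median centring the second Loxl1 probe was below 0 on both arrays.

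The Loxl1 probes are shown because they disagree, beside the Emilin1 probe, the 1 member probe whose ends lie more than 60 bases apart in the genome. All 3 have at least 1 reading frame without a stop codon in the sense direction. They are 60-base oligonucleotides, printed whole in lower case with no part marked, at mm9 positions from the files.
Loxl1 brighter probe, chr9:58138570-58138629, minus strand: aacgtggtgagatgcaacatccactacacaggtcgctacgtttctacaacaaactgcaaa
Loxl1 second probe, chr9:58145451-58145510, minus strand: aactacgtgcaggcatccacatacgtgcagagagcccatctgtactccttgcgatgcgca
Emilin1 probe, chr5:31222545-31223001, plus strand: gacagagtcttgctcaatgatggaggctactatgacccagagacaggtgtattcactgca
The 60 bases of the Emilin1 probe span 457 bases of the genome. The brighter Loxl1 probe starts at base 2075 of the transcript in the files and the second at base 1553. Both therefore read the same transcript record.

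There were 6 members with ratios of opposite sign on the 2 arrays, namely Eln, Fbn2, Mfap5, Fbln5, Lox and Loxl1, each higher in Rbpj-cKO in the male and lower in the female pair. Such a split was common, with 58.6% of all features of opposite sign. The other 4 members (Fbn1, Emilin1, Mfap4 and Ltbp2) were lower on both arrays, against 19.7% of all features, and 0 of 10 were higher on both, against 21.7%. These signs depended on the scaling. With median centring in place of loess, 9 members had opposite signs and Mfap4 alone was lower on both arrays. That centring also moved the median of all features to 0.17 (male) and -0.09 (female). With Agilent's processed signals, 3 members were lower on both and 2 higher on both. Shares of all features were counted with loess only. With loess, the medians of the 10 genes were 0.09 and -0.17, while the median of all features was 0.01 on each array. SDs over the 2 arrays ran from 0.03 for Fbn1 to 0.71 for Ltbp2, and the median SD of all features was 0.19.

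**Figure D3:**
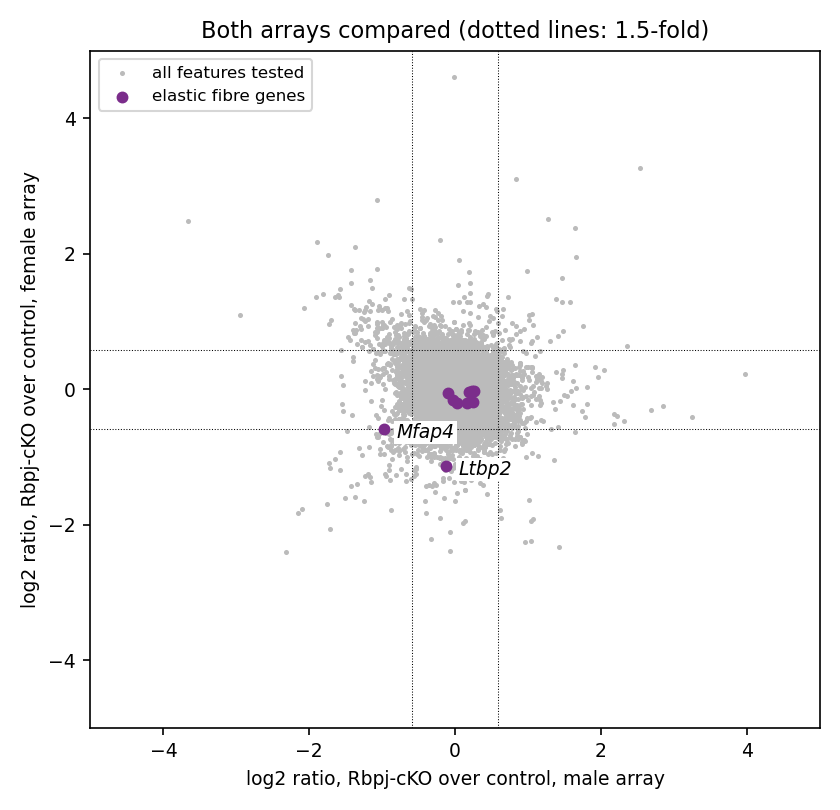
Log2 ratio of Rbpj-cKO over control on the male array (horizontal axis) against the female array (vertical axis) for all 20989 features (grey) and the 10 elastic fibre genes (purple). Dotted lines mark 1.5-fold; Mfap4 lies at -0.97 and -0.59, just past the lines, Ltbp2 at -0.13 and -1.14, and the other 8 genes lie within the central mass.

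Rbpj protein binds the core TGGGAA, so promoters of the members were searched for it on both strands, from 250 bases before to 50 after the start site (RefSeq, GRCm38.p6). Promoters of 4 of the 10 genes were matched, 5 in all: Emilin1, Fbln5 (2 start sites), Fbn1 and Ltbp2. Eln, Fbn2, Lox, Loxl1, Mfap4 and Mfap5 were not matched. TGGGAA was found in the Fbn1 promoter and in 1 of the 2 of Fbln5, against 25.6% of all 32851 promoters. The longer GTGGGAA, which contains TGGGAA, was found in Fbn1 at the same place, against 6.38%, and the CArG box of serum response factor in none of the 5, against 1.63%. No match was found in the Ltbp2 window, which says only that these letters are not in it. The 250 bases before both start sites with a match are shown, in lower case with TGGGAA or its reverse complement in capitals.
Fbn1, chr2:125506439-125506688, minus strand: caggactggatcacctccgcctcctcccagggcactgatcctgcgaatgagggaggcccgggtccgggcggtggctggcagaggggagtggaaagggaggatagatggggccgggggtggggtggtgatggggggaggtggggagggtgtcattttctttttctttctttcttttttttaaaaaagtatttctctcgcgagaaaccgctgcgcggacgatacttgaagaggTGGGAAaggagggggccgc
Fbln5, chr12:101819120-101819369, minus strand: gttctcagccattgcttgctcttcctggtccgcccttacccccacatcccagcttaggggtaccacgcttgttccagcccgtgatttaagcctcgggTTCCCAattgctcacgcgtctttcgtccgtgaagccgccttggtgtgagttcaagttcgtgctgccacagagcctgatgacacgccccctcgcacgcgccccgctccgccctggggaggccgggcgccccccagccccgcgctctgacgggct
Relative to the start site the match begins at position -19 in Fbn1 and at -153 in Fbln5. Neither gene had a mean ratio beyond 0.08 in size at its brightest probe, and the dim second Fbln5 probe had 0.09. A link between the matches and the ratios was not tested.

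Other genes of elastic fibre assembly, crosslinking and breakdown were taken from a list of 60, of which 59 passed the filter on dim probes and Mmp12 did not. None passed the limma test (lowest adjusted p = 0.498, for Fbln7), and 7 had an unadjusted p under 0.05, against 3.37% of all features. None of the 59 differed by at least 1.5-fold in one direction on both arrays, against 0.638% of all features. Of the 59, 24 were higher on both arrays (40.7%, against 21.7% of all features) and 13 were lower on both, against 19.7%. With median centring 16 were higher on both. The share of all features was not counted under that centring, here or for the groups below. Their median was 0.11, with 0.22 and -0.02 on the single arrays.

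**Figure D4:**
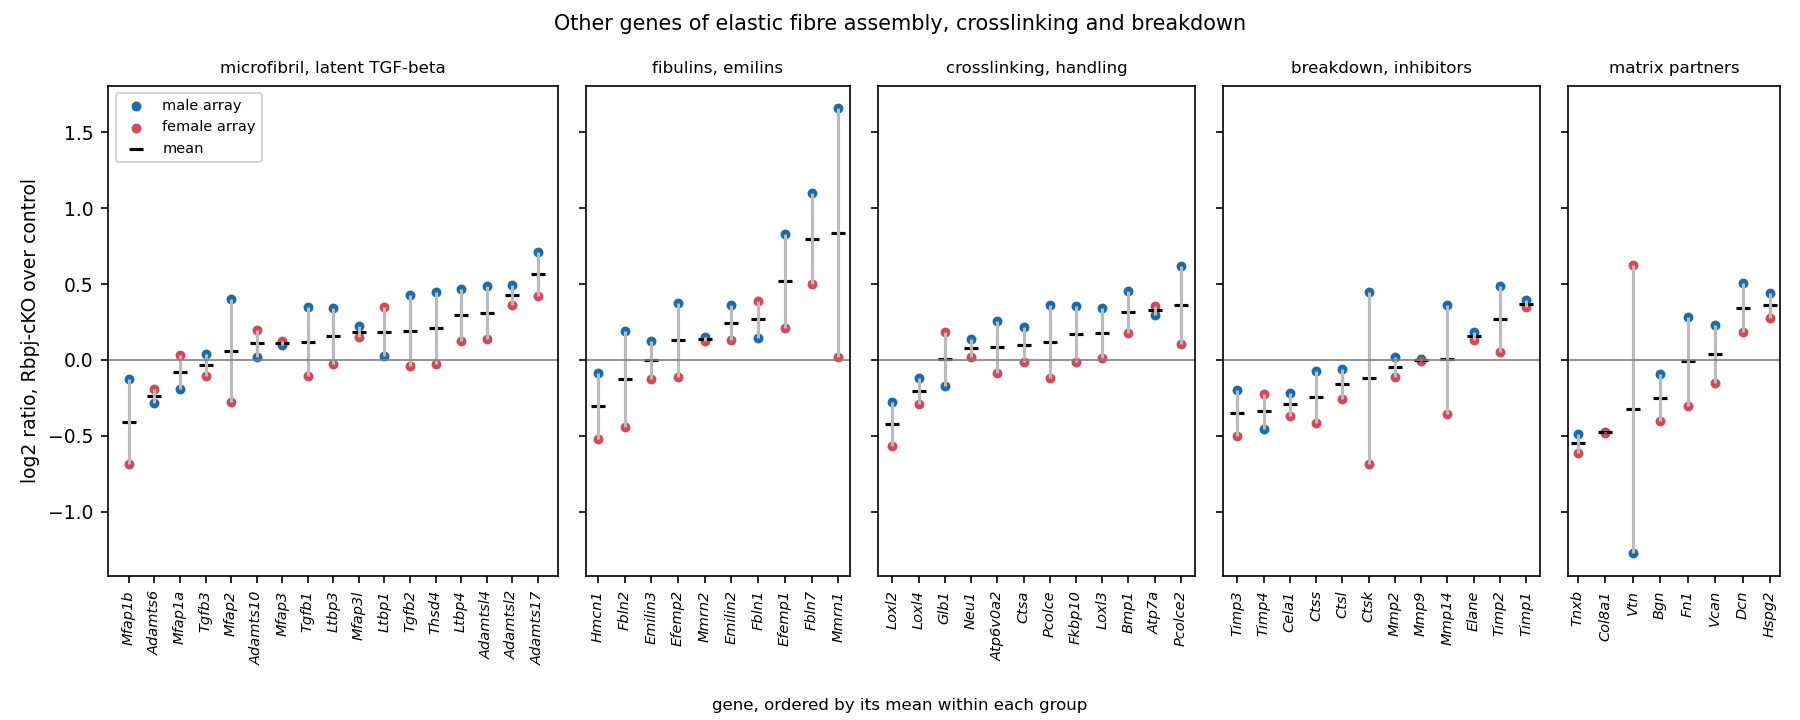
Log2 ratio of Rbpj-cKO over control (vertical axis) for 59 other genes (horizontal axis, ordered by mean within 5 groups). Blue points are the male and red points the female array, black bars their mean; the largest means are those of Mmrn1 and Fbln7, at 0.84 and 0.80, and the female value of Mmrn1 is 0.02.

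Of 10 other fibulins and emilins, 6 were higher on both arrays and 1 lower on both (median 0.19), and with median centring 4 and 0. Fbln7, a cell adhesion fibulin, had 1.1 and 0.50 (mean 0.80, 1.74-fold higher). Mmrn1, the platelet and endothelial multimerin, had 1.66 and 0.02. Efemp1 (fibulin-3) had 0.83 and 0.21, and Efemp2 (fibulin-4), which is needed with Lox for elastin crosslinking, had 0.38 and -0.11. The lowest of the group was the hemicentin gene Hmcn1, at -0.08 and -0.52.

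Among 17 other microfibril and latent TGF-beta genes, 8 were higher on both arrays and 2 lower on both (median 0.16), and with median centring 6 and 1. The highest was the matrix protease gene Adamts17, at 0.71 and 0.42 at its brightest probe but 0.21 and -0.20 at a second one, and the lowest the splicing factor gene Mfap1b, at -0.13 and -0.69. The mean of Ltbp2 (ratios -0.13 and -1.14) lay below those of the other latent TGF-beta binding proteins. Ratios at the brightest probes of these were 0.02 and 0.35 for Ltbp1, 0.34 and -0.03 for Ltbp3, and 0.47 and 0.12 for Ltbp4. Means at these probes were 0.18 for Ltbp1, 0.16 for Ltbp3 and 0.30 for Ltbp4, none past the test. Second probes had means of 0.22 for Ltbp3 and 0.05 for Ltbp4, the latter from -0.18 and 0.29. On the male array this second Ltbp4 probe was no higher than Ltbp2. The difference from Ltbp2 was not tested. Mfap2, the close relative of Mfap5, had 0.40 and -0.28 (mean 0.06) at its brightest probe. A second Mfap2 probe had the opposite sign on each array, at -0.34 and 0.04 (mean -0.15).

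Of 12 genes of crosslinking, copper supply and tropoelastin handling, 5 were higher on both arrays and 2 lower on both (median 0.11), and with median centring 3 and 0. Loxl2, a lysyl oxidase relative, had the lowest mean of these (-0.28 and -0.56), and Pcolce2, an enhancer of procollagen processing, the highest (0.62 and 0.11). Dimmer Loxl2 probes had 0.17 and -0.68, -0.11 and -0.19, and 0.0015 and -0.51, so its male sign depended on the probe. The copper transporter gene Atp7a, which supplies lysyl oxidases, had 0.30 and 0.36. Of 12 measured genes of elastin breakdown and its inhibitors, 3 were higher and 5 lower on both arrays (median -0.08), and with median centring 2 and 2. Here the metalloproteinase inhibitor Timp1 had the highest mean (0.40 and 0.35) and its relative Timp3 the lowest (-0.20 and -0.50). Of 8 matrix partners, 2 were higher and 3 lower on both arrays (median -0.13), and with median centring 1 and 2. The heparan sulfate proteoglycan gene Hspg2 (0.44 and 0.28, but 0.33 and -0.12 at a second probe) and the tenascin gene Tnxb (-0.49 and -0.61) marked the ends of this group.

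No cell type marker passed the test, and the part of these markers in the values of Mfap4 and Ltbp2 was not tested. In bulk RNA, fewer cells of a type and less RNA per cell cannot be told apart. Of 6 smooth muscle markers, 5 were lower on both arrays (median -0.28, means from -0.64 to 0.16), though 3 with median centring. The log2 summed level of the list was 19.09 and 19.07 in Rbpj-cKO and 19.34 and 19.20 in control RNA (male, then female). Acta2 had -0.30 and -0.09, Myh11 -0.59 and -0.12, and Tagln -0.09 and -0.17. Des, the desmin gene, was the 1 smooth muscle marker lower by at least 1.5-fold on both arrays (-0.63 and -0.64, limma adjusted p = 0.760). Of 7 fibroblast markers, 2 were higher and 1 lower on both arrays (median 0.18), and with median centring 0 and 1. The summed fibroblast level was 19.86 and 19.70 in Rbpj-cKO and 19.44 and 19.71 in control RNA. The fibroblast marker lower on both arrays was Dpt, the dermatopontin gene, mostly on the female array (-0.20 and -1.90). Markers of other lists were also low on the female array, though above 0 on the male: Rgs5 at -1.12, Th at -1.79 and Lrrn4 at -1.63. Pdgfra had -0.30 and 0.06, Dcn 0.51 and 0.18, and Lum 0.31 and 0.16.

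Medians of the 5 mesothelial markers were 0.50 and -0.21, with 2 of them higher on both arrays (1 with median centring). Their summed level was 15.62 and 15.41 in Rbpj-cKO against 15.21 and 15.35 in control RNA. The 5 mural cell markers had a median of 0.37 and -0.35, 2 of them lower on both, and summed levels of 15.21 and 14.76 against 14.99 and 15.28. The 6 urothelial markers had medians of 0.28 and 0.32, 5 of them higher on both arrays, but 1 with median centring. All markers of these 5 lists were well above background in all 4 channels. Endothelial, nerve and macrophage lists had median means between -0.15 and -0.04.

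The features whose pair of ratios was nearest to that of Mfap4, by Euclidean distance over the 2 arrays, were Akap5 (0.04 away), Gm13861 (0.06), Laptm4a (0.07), Cox8c (0.09) and Thsd7b (0.10). Their means ran from -0.83 to -0.76, and none passed the test. With 2 arrays this likeness rests on 2 values per gene.

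**Figure D5:**
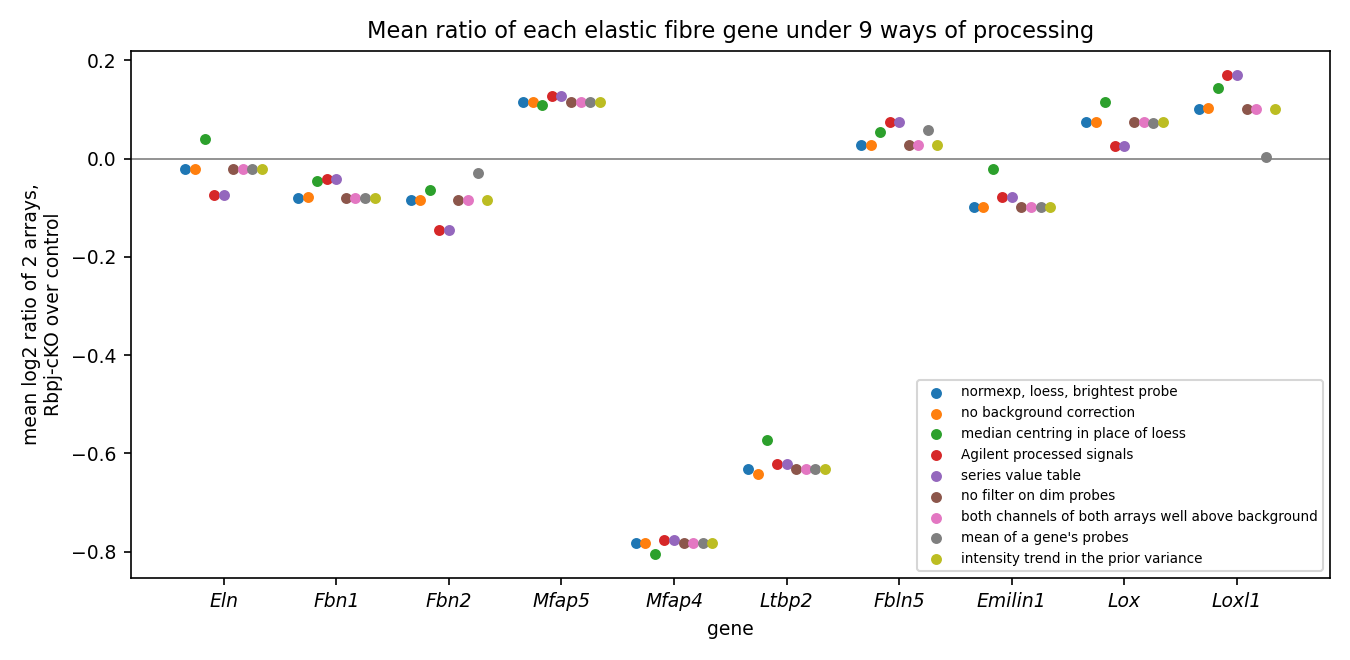
Mean log2 ratio over the 2 arrays (vertical axis) of each of the 10 genes (horizontal axis) under 9 ways of processing, 1 colour each. Mfap4 stayed between -0.80 and -0.78 and Ltbp2 between -0.64 and -0.57; Eln is the 1 gene whose points lie on both sides of 0.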

How the data were processed

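The deposited scanner files hold spot intensity; the submitters' processing notes name Agilent Feature Extraction 10.7.3.1. Per the file headers, mean and background signals are raw, processed signals are background-subtracted and dye-normalized, and the log10 ratio is red over green. In the series value table the authors deposited a score with no stated method. Read as a fold with a sign (Rbpj-cKO against control), it was within 0.001 (log2) of the ratio of processed signals for 98.0% and 98.1% of kept probes; how its other values were set is not stated.

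Mean signals were corrected with normexp (offset 50) and loess, control spots having weight 0. Control and outlier spots (200 and 274) were left out. Channel levels are log2 intensity after Aquantile. Probes were kept where well above background on both arrays in 1 of the 2 groups. Of 39429 probes, 26412 were named through RefSeq (GRCm38.p6) and 13017 kept the name in the files. The brightest probe stood for a gene; the other probes of members were fitted with all 26224 kept probes. Tests were two-sided with lmFit and eBayes of limma 3.58.1 in R 4.3.3. They had 10.3 prior degrees of freedom beside 1 residual, and p-values were adjusted by Benjamini-Hochberg over all features at a threshold of 0.05. On simulated data of this size the share of false calls was mostly above the threshold, and the prior degrees of freedom were mostly estimated too high and varied widely from set to set, so counts of features past the test are approximate. An exact sign test on 2 arrays cannot go below p = 0.5. Nothing says the RNAs were of separate litters, so p-values speak of these arrays only. With more prior than residual degrees of freedom, the spread behind each p-value and interval was mostly pooled over all features. It was therefore not the spread of the single gene. Ltbp2 had an SD of 0.71 and a standard error of the fit of 0.24, and Fbn1 had 0.03 and 0.19. Both arrays share a slide and a scan.

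Members and lists were chosen with earlier results of these data known. Named genes are all 10 members, per group of other genes those past the test or with the highest and lowest mean, the 5 features nearest to the member of largest absolute mean and up to 3 markers of 3 cell types. Efemp1, Efemp2, Ltbp1, Ltbp3, Ltbp4, Mfap2, Fbln7, Atp7a, Des, Dpt, Rgs5, Th, Lrrn4, Six2 and Cdh16 fall outside it and were named after their values were seen.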

Additional observations from a re-analysis of the deposited data

Results flagged for a closer look

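For 6 members the male pair was higher and the female pair lower in Rbpj-cKO RNA, and the difference between the pairs was not tested. The log2 ratios on the male and the female array were 0.16 and -0.20 for Eln, 0.24 and -0.19 for Fbln5, and 0.031 and -0.20 for Fbn2. They were 0.19 and -0.039 for Lox, 0.23 and -0.029 for Loxl1, and 0.25 and -0.022 for Mfap5. With 1 array of each sex, and the dyes swapped between them, sex and dye orientation cannot be told apart, and 58.6% of all features also had opposite signs.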

How the results depend on the processing

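No member passed the test in any of the 9 ways of processing with a test (lowest limma adjusted p 0.170, for Mfap4 with no background correction). The number of all features past the test, 27 as reported, was 75 with no background correction, 41 with an intensity trend and 10 when the probes of a gene were averaged. It was 0 with median centring, processed signals of the scanner, the deposited value table and no filter on dim probes (lowest limma adjusted p 0.156, 0.0536, 0.0749 and 0.0521, with 226, 837, 818 and 979 features at an unadjusted p under 0.05). The count changed at least 1.5-fold on both arrays was 134, and 290 and 260 with the processed signals and the value table; on 1 array alone it was 1147 to 1324. Members past that fold numbered 1, but 0 with median centring, and 1 to 2 on 1 array alone. Other elastic fibre genes higher on both arrays numbered 24, and 27 to 43 on 1 array alone. The sign of Eln turned to 0.040 with median centring, and that of the second Fbn2 probe to -0.017 with the processed signals and the value table. The members' median was 0.01 with median centring, which moved the median of all features to 0.17 (male) and -0.09 (female). Every test was on ratios within an array, so the pairing of Rbpj-cKO and control RNA on each array was used. No further pairing was possible, because a replicate number marks 1 array alone. No batch could be tested within 1 slide and 1 scan.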

Other observations

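Control channels of the male and female array differed at several member probes, with dye and sex exchanged together. The log2 control level was higher on the female array by 0.66 for Eln, 0.55 for Ltbp2 and 0.53 for Mfap4, and by 0.35 for Fbln5. The median over all features of the same difference was 0.00304. Emilin1 went the other way, with control levels of 12.93 (male) and 12.57 (female). In Rbpj-cKO RNA, Mfap4 was higher on the female array by 0.91, while Ltbp2 and Emilin1 had female minus male differences of -0.46 and -0.49. These differences have no replicate within a sex and were not tested.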
